A study of Homo sapiens with 4 samples.

Results

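Transcripts of 54 genes of the nuclear pore and of Ran-driven transport were measured in Kasumi-1 cells with and without knockdown of ANP32B. The genes were taken by name, from a list made with earlier results of these data known. They were 5 of the Ran cycle, 22 karyopherins and 27 nucleoporins, out of 18567 genes in the deposited table. All 54 were among the 16817 genes tested, which reached at least 1 TPM (a unit that gives each gene's share of the transcripts in a sample, corrected for length) in at least 2 of the 4 samples. The lowest value of any of the 54 was 2.25 TPM, so none was tested on the strength of a single group.

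Kasumi-1 is a long-established line of acute myeloid leukemia (AML) that carries the RUNX1-RUNX1T1 fusion, and ANP32B is an acidic nuclear phosphoprotein that acts as a histone chaperone. The 2 NC samples were controls and the 2 sh-ANP32B samples carried an shRNA against ANP32B, all grown as Kasumi-1 cells and sequenced as total RNA. The labels give no treatment and no hairpin for NC, while the paper of the study names a control hairpin, sh-NC, in stable Kasumi-1 lines, so whether these NC samples carried it was not settled, nor was the hairpin used in each sh-ANP32B sample. The paper states in general that experiments were repeated independently, but nothing says of these samples that the 2 of a group were separate cultures, so p-values measure the spread between these samples, which may be technical. ANP32B itself stood at 383.8 and 392.0 TPM in NC and at 51.8 and 41.2 TPM in sh-ANP32B (log2 fold change -3.04, SE 0.150, limma adjusted p = 0.00516). Of 12 myeloblast markers 10 were measured, with SPI1 at 241.0 to 363.6 TPM and ELANE at 292.4 to 504.5 TPM, KIT only at 1.55 to 3.41 TPM, and MPO and CD34 not analysed here.

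Large proteins and RNAs cross the nuclear envelope only through the nuclear pore complex, a channel of stacked rings built from nucleoporins. Karyopherins carry them: importins bind cargo in the cytoplasm and let it go when they meet Ran-GTP in the nucleus, whereas exportins leave the nucleus with cargo and Ran-GTP and let go when the GTP is hydrolysed. The chromatin-bound exchange factor RCC1 loads Ran with GTP, and the GTPase activator RANGAP1, helped by RANBP1 and RANBP2, empties it in the cytoplasm, so that the direction of transport follows the Ran gradient.

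Transcripts of this machinery were lower in sh-ANP32B almost throughout, mostly by a modest amount. The log2 fold change, on the log2(TPM + 1) scale throughout, was negative for 51 of the 54 genes, against 42.1% of all genes tested, and its median was -0.30, against 0.08 over all genes tested. Together the 54 genes made up 4784 and 4885 TPM in NC against 3990 and 3671 TPM in sh-ANP32B, so that the mean sum was 79.2% of that in NC. Only RANBP1 and NDC1 fell with a limma p, adjusted over all genes, under 0.05, which is 3.70% of the 54 genes beside 3.32% of all genes tested in either direction and 1.18% in the lower direction. No gene of the 54 rose, beside 2.14% of all genes tested. The 54 were more abundant than most, with a median NC level of 68.2 TPM beside 14.3 TPM over all genes tested. Among the 10486 genes with an NC mean at least that of the lowest of the 54, 45.4% had negative fold changes. Of those 10486, 196 fell and 259 rose at the same threshold.

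Under looser readings the genes stood further from the background. At an unadjusted p under 0.05, 21 of the 54 were lower and none was higher, beside 23.8% of all genes tested in either direction, 8.72% lower and 15% higher. The criterion of the study, namely an unadjusted p under 0.05 and a fold change beyond 0.5 on the log2 scale in either direction, was met by 14, all lower, beside 18.6% of all genes tested in either direction, 6.55% lower and 12.1% higher; the p here came from limma, since the DESeq2 test of the study needs counts. Both sh-ANP32B samples lay below both NC samples for 39 of the 54 genes, beside 21.4% of all genes tested, and above both for SEC13 and AAAS, beside 33.2%. The groups overlapped for the other 13. Among the 10486 genes with an NC mean at least that of the lowest of the 54, 25.8% lay below both controls and 32.7% above. Taken singly, sh-ANP32B replicate 1 was below both controls for 42 genes and replicate 2 for 47, beside 34.2% and 36.1% of all genes tested. In these bulk samples less RNA per cell and fewer cells of a kind cannot be told apart.

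**Figure D1:**
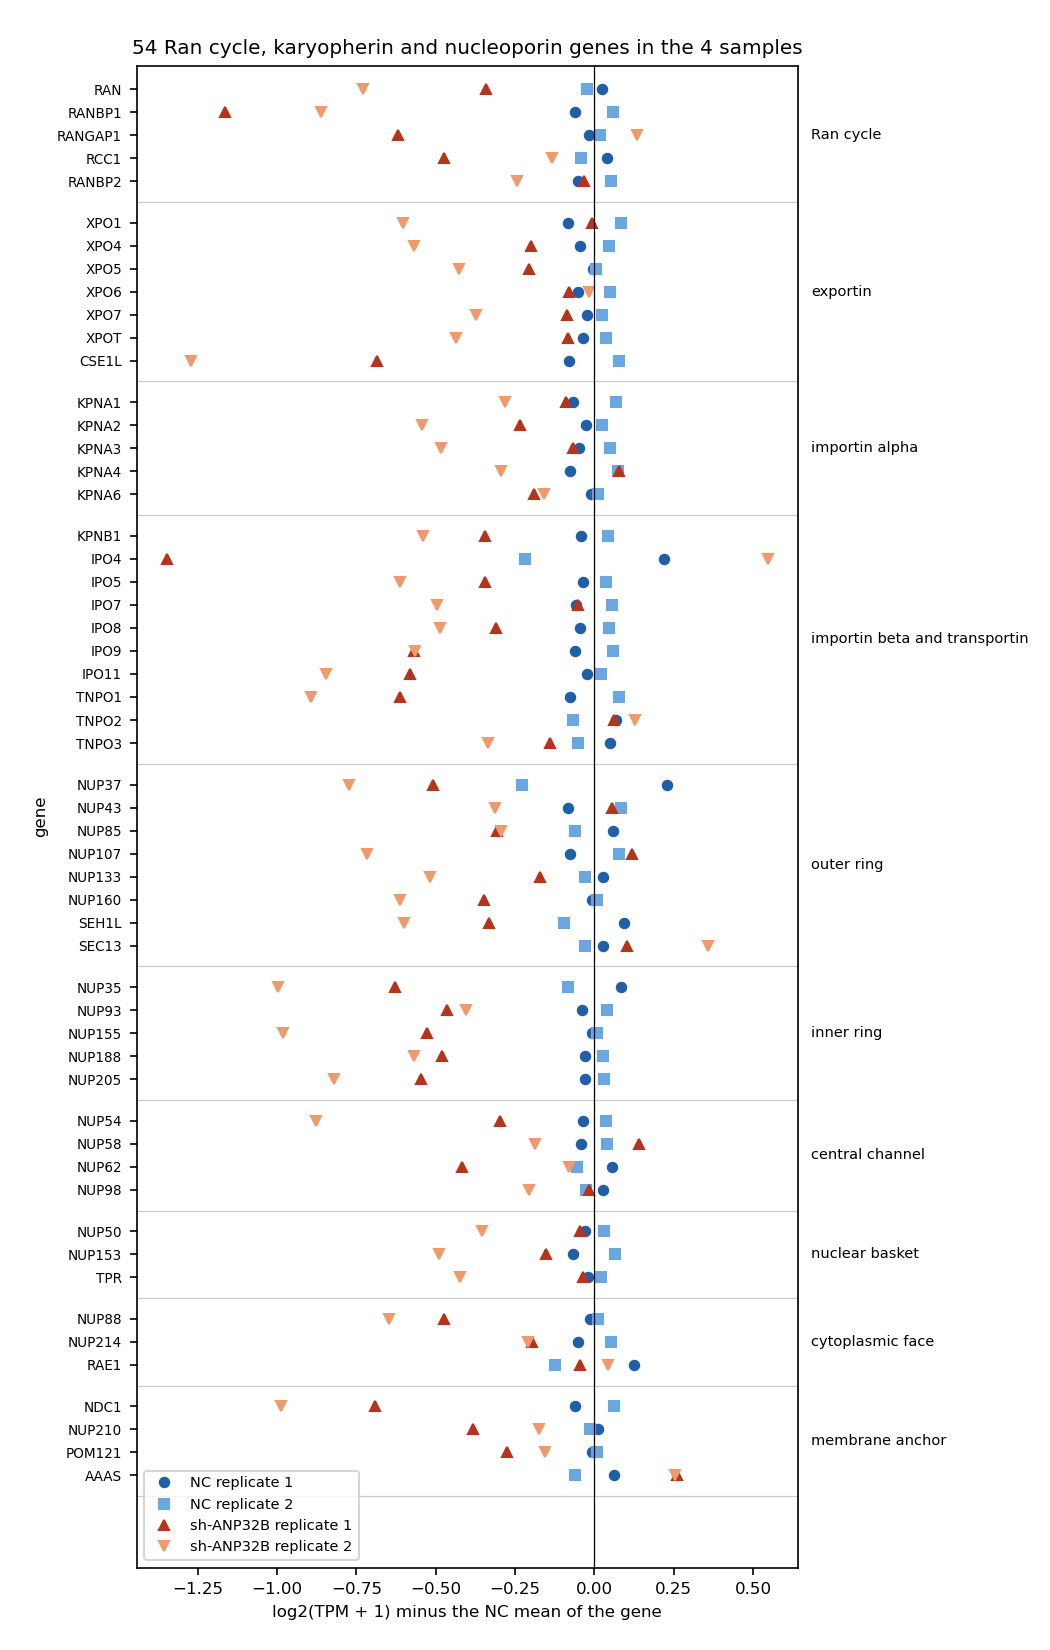
Each row is a gene, and each point a sample, placed by its log2(TPM + 1) minus the mean of the 2 NC samples. Both sh-ANP32B triangles lie left of both NC symbols in 39 of the 54 rows, with all 5 inner ring genes among them, and right of both in the rows of SEC13 and AAAS.

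The Ran cycle held the gene with the most negative fold change. RANBP1, which binds Ran-GTP and speeds its hydrolysis (ENSG00000099901, chr22:20115938-20127355, plus strand, hg38), stood at 187.2 and 203.5 TPM in NC and at 86.5 and 107.0 TPM in sh-ANP32B. Both knockdown samples were thus far under both controls, and the mean level was 49.5% of that in NC (96.7 ± 14.5 against 195.4 ± 11.6 TPM, SD, n = 2 each). Its fitted log2 difference was -1.01 with an SE of 0.150 (limma adjusted p = 0.0351). The call did not hold without NC replicate 2, where the log2 fold change was -0.95 and the limma adjusted p 0.107, or without the abundance trend of limma, where it was 0.116. RANBP1 shares 393 exonic bases with TRMT2A on the opposite strand, a gene at 32.2 to 54.4 TPM, and whether the counting used strand was not given in the sources used here.

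RAN, the GTPase itself (chr12:130872037-130877678), stood at 266.9 and 258.1 TPM in NC and at 206.9 and 158.1 TPM in sh-ANP32B. The groups did not overlap, with replicate 2 the lower of the knockdown samples, and the fitted log2 difference was -0.53 with an SE of 0.158 (limma adjusted p = 0.110). RCC1, the exchange factor, stood at 220.9 and 208.7 TPM in NC and at 154.4 and 195.6 TPM in sh-ANP32B (log2 fold change -0.30, limma adjusted p = 0.282). Both of its knockdown samples were again below the controls, but here replicate 1 was the lower one. RCC1 shares 242 exonic bases with SNHG3, a noncoding gene on the same strand.

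RANGAP1, the GTPase activator, stood at 105.9 and 108.6 TPM in NC and at 69.5 and 117.7 TPM in sh-ANP32B. The knockdown samples fell on either side of the controls, and the log2 fold change was -0.24 with both and 0.13 without sh-ANP32B replicate 1. RANBP2, the large nucleoporin of the cytoplasmic filaments that also binds Ran, stood at 30.7 and 33.1 TPM in NC and at 31.2 and 26.8 TPM in sh-ANP32B, with overlapping groups and a log2 fold change of -0.14. Its near-identical copies RGPD5, RGPD6 and RGPD8 were listed at 0.850 to 2.63 TPM, and how reads were divided between them was not given in the sources used here. The summed Ran cycle came to 812 TPM in each NC sample against 548 and 605 TPM in sh-ANP32B, 71.1% of NC.

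The balance between the Ran cycle genes differed between the 2 knockdown samples. Per TPM of RAN, RANBP1 was at 0.701 and 0.789 in NC and at 0.418 and 0.677 in sh-ANP32B, below both controls in each. RANGAP1 was at 0.397 and 0.421 in NC and at 0.336 and 0.745 in sh-ANP32B. RCC1 was at 0.828 and 0.809 in NC and at 0.746 and 1.24 in sh-ANP32B. For RANGAP1 and RCC1 the ratio to RAN was therefore lowest in sh-ANP32B replicate 1 and highest in replicate 2. The longest transcript of RAN has a GC content of 40.2%, beside 51.1% for RCC1, 55.9% for RANBP1 and 59.9% for RANGAP1. Over all tested genes with a known GC content, sh-ANP32B replicate 2 minus replicate 1 rose with GC (Spearman 0.577). The part of this in the ratios was not tested.

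**Figure D2:**
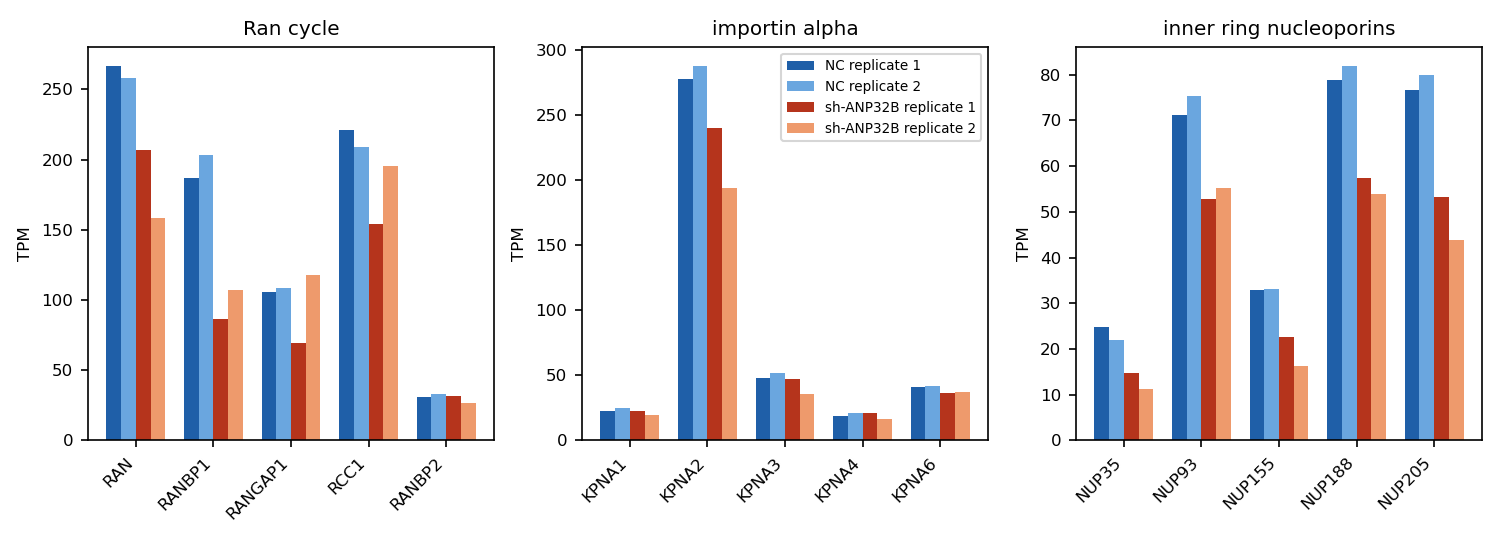
Bars give the TPM of each gene in each of the 4 samples, from 0, for the Ran cycle, 5 importin alpha genes and the inner ring nucleoporins. KPNA5 is not shown. RANBP1 fell from 187.2 and 203.5 to 86.5 and 107.0 TPM, KPNA2 dominates its family in every sample, and all 5 inner ring genes are lower in both sh-ANP32B samples.

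All 7 exportin genes had negative fold changes, beside 42.1% of all genes tested. Their median was -0.31, and 1 of them stood apart in size. CSE1L, the exportin that returns importin alpha to the cytoplasm (chr20:49046246-49096960), stood at 103.6 and 115.7 TPM in NC and at 67.6 and 44.7 TPM in sh-ANP32B. The groups were well apart, and the log2 fold change of -0.98 (SE 0.209) just missed the threshold at a limma adjusted p of 0.0581. XPO1, the main exportin of proteins with a leucine-rich export signal, stood at 218.5 and 245.6 TPM in NC and at 230.2 and 152.3 TPM in sh-ANP32B. Only its replicate 2 was below the controls, and the log2 fold change was -0.31 (limma adjusted p = 0.419). XPO6, which exports profilin and actin, had a log2 fold change of -0.05 with overlapping groups.

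The 5 importin alpha genes among the 54, whose proteins hold the classical nuclear localisation signal, had a median log2 fold change of -0.18. KPNA5, an importin alpha outside the 54, had a positive value, 0.39, and is in neither this median nor the sums below. KPNA2, the second most abundant of the 54 transcripts in NC, stood at 278.4 and 288.3 TPM in NC and at 240.5 and 194.2 TPM in sh-ANP32B (log2 fold change -0.39, SE 0.144, limma adjusted p = 0.171). Both knockdown samples were below both controls. In NC KPNA2 was between 5.70 and 14.2 times as abundant per length as KPNA1, KPNA3, KPNA4 and KPNA6. It made up 67.8% of the summed TPM of the 5 in NC and 65.0% in sh-ANP32B. KPNA1, KPNA3, KPNA4 and KPNA6 had log2 fold changes of -0.18, -0.28, -0.11 and -0.17, and only the groups of KPNA4 overlapped. Both knockdown samples were thus below both controls in 4 of the 5, beside 21.4% of all genes tested.

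KPNB1, importin beta, the partner of importin alpha in import, stood at 159.1 and 168.9 TPM in NC and at 128.8 and 112.4 TPM in sh-ANP32B. Its groups did not overlap, and the fitted log2 difference was -0.44 with an SE of 0.134 (limma adjusted p = 0.115). TNPO1, transportin, which imports RNA-binding proteins, stood at 36.8 and 41.1 TPM in NC and at 25.1 and 20.5 TPM in sh-ANP32B (log2 fold change -0.75, SE 0.171, limma adjusted p = 0.0652). Its close relative TNPO2 stood at 35.1 and 31.8 TPM in NC and at 34.9 and 36.6 TPM in sh-ANP32B, with overlapping groups. Its value of 0.09 was the only positive one among the 22 karyopherins of the 54 genes. Of the 10 importin beta and transportin genes, 9 had negative fold changes, beside 42.1% of all genes tested, and the median was -0.42. Both knockdown samples were below both controls in 7 of the 10, beside 21.4% of all genes tested. IPO4 had the widest spread of the 54, at 8.63 and 6.11 TPM in NC against 2.25 and 11.1 TPM in sh-ANP32B, and shares 3375 exonic bases with a readthrough gene on the same strand; it is named for that spread, after its values were seen.

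Among nucleoporins the inner ring, the part that lies against the membrane and joins the outer rings to the central channel, had the most negative median log2 fold change of the subgroups, -0.68. All 5 of its genes had both knockdown samples below both controls, beside 21.4% of all genes tested. All 5 also had an unadjusted limma p under 0.05, beside 8.72% of all genes tested that were lower. None passed the adjusted threshold. NUP35, which binds the membrane, stood at 24.7 and 21.9 TPM in NC and at 14.7 and 11.2 TPM in sh-ANP32B (log2 fold change -0.81, SE 0.198, limma adjusted p = 0.0744). The other 4, given after their values were seen, had log2 fold changes of -0.75 for NUP155, -0.68 for the scaffold protein NUP205, -0.52 for its relative NUP188 and -0.43 for NUP93. The summed inner ring came to 284.1 and 292.4 TPM in NC against 200.7 and 180.4 TPM in sh-ANP32B, 66.1% of NC, whereas all 27 nucleoporins together stood at 82.5%.

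The outer ring, the Y-shaped scaffold on both faces of the pore, was less uniform. Of its 8 genes 7 had negative fold changes, beside 42.1% of all genes tested, and the median was -0.32. NUP107, a core subunit, stood at 41.0 and 45.8 TPM in NC and at 47.2 and 26.0 TPM in sh-ANP32B. The knockdown samples lay on either side of the controls, and the log2 fold change of -0.30 became 0.12 without sh-ANP32B replicate 2. SEC13, which also coats vesicles leaving the endoplasmic reticulum, stood at 130.6 and 125.6 TPM in NC and at 137.8 and 164.6 TPM in sh-ANP32B, above both controls in each sample (log2 fold change 0.23, limma adjusted p = 0.369).

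Of the membrane anchors, NDC1, a transmembrane nucleoporin that ties the pore to the envelope (ENSG00000058804, chr1:53765478-53838463, minus strand), stood at 79.1 and 86.3 TPM in NC and at 50.8 and 41.2 TPM in sh-ANP32B. It fell in both samples, to 55.6% of the NC mean (log2 fold change -0.84, SE 0.158, limma adjusted p = 0.0457). The call did not hold without NC replicate 1, with a limma adjusted p of 0.149, or without NC replicate 2, with 0.287, nor with a pseudocount of 0.1, with 0.0508, or without the abundance trend, with 0.125. AAAS, or ALADIN, which NDC1 holds at the pore, stood at 57.7 and 52.8 TPM in NC and at 66.4 and 66.0 TPM in sh-ANP32B, above both controls in each (log2 fold change 0.26, limma adjusted p = 0.305). NUP210, the lumenal nucleoporin and the most abundant of the 54 transcripts, stood at 377.8 and 371.2 TPM in NC and at 286.9 and 331.6 TPM in sh-ANP32B (log2 fold change -0.28, SE 0.129, limma adjusted p = 0.249). Both knockdown samples of NUP210 were below the controls.

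The central channel, nuclear basket and cytoplasmic face had the medians nearest to 0 among the nucleoporin subgroups, -0.18, -0.23 and -0.20. NUP62, whose FG repeats line the central channel, stood at 115.3 and 106.8 TPM in NC and at 82.9 and 104.9 TPM in sh-ANP32B, a log2 fold change of -0.25. Its knockdown replicate 2 lay close under the lower control, and NUP62 shares 565 exonic bases with ATF5 on the opposite strand. NUP98, another FG nucleoporin and a fusion partner in AML, had a value of -0.11 with overlapping groups. In the nuclear basket NUP153 had a value of -0.32 and TPR -0.23. Both knockdown samples were below both controls for all 3 basket genes, beside 21.4% of all genes tested. The basket median relative to the NC mean was only -0.05 in sh-ANP32B replicate 1, against -0.42 in replicate 2. For TPR, replicate 1 was at 102.4 TPM beside 103.5 TPM in the lower control. The rule for naming took in every gene with a positive fold change, so the 28 genes outside it were negative by construction, from -0.75 to -0.0019. Both knockdown samples were below both controls in 23 of these. Among the 7076 genes tested with a negative fold change, this held for 3601. An unadjusted limma p under 0.05 was met by 13 of the 28, beside 1467 of the 7076.

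**Figure D3:**
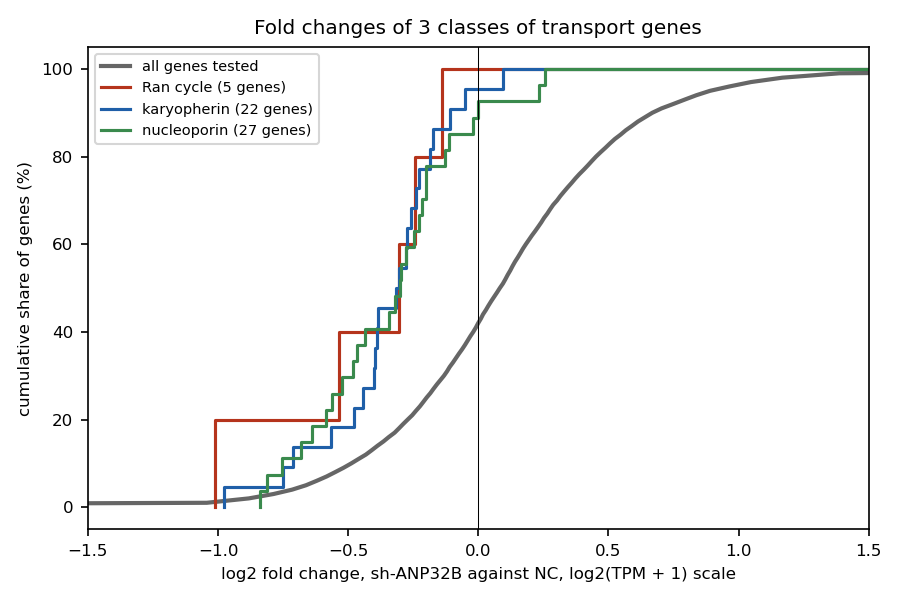
The curves give the share of genes (%) at or below each log2 fold change, for all 16817 genes tested and for the 3 classes. The classes run close together, with medians of -0.30, -0.31 and -0.30, and lie left of the curve for all genes, whose median is 0.08.

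The 3 classes were close to each other. Medians were -0.30 for the Ran cycle (5 of 5 negative), -0.31 for karyopherins (21 of 22) and -0.30 for nucleoporins (25 of 27). Over all genes tested, 42.1% were negative. As shares of NC, the summed TPM stood at 71.1%, 79.2% and 82.5%. Differences between the classes were not tested. The order by class depended on the sample: the median relative to the NC mean was -0.47 for the Ran cycle and -0.19 for karyopherins in sh-ANP32B replicate 1, and -0.24 and -0.49 in replicate 2.

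That difference between the knockdown samples went with the base composition of the transcripts. All 31 genes with a GC content under 45% in the longest transcript were lower in sh-ANP32B replicate 2 than in replicate 1. Their median difference was -0.34 on the log2 scale. Of all tested genes under 45% GC, 4864 of 5909 were lower in replicate 2, with a median difference of -0.285. Of the 23 genes at 45% or more, 8 were lower, with a median difference of 0.06. Over all tested genes of that GC content it was 3310 of 9518, with a median difference of 0.14. Across the 54 genes the Spearman correlation of this difference with GC was 0.809, and over the 15427 tested genes with a known GC content it was 0.577; genes of 1 sample share its library, so these values are descriptive. Between the NC samples the correlation was -0.451 over the 54 genes and -0.206 over the tested genes with a known GC content. All 31 low-GC genes had a negative fold change, and in 24 of them both knockdown samples were below both controls, beside 48.0% and 24.6% of all genes under 45% GC. At 45% or more, 20 of the 23 were negative and 15 had both knockdown samples below, beside 38.4% and 19.8% of all genes of that GC content. All genes under 45% GC had a median log2 fold change of 0.02, and those at 45% or more 0.12.

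**Figure D4:**
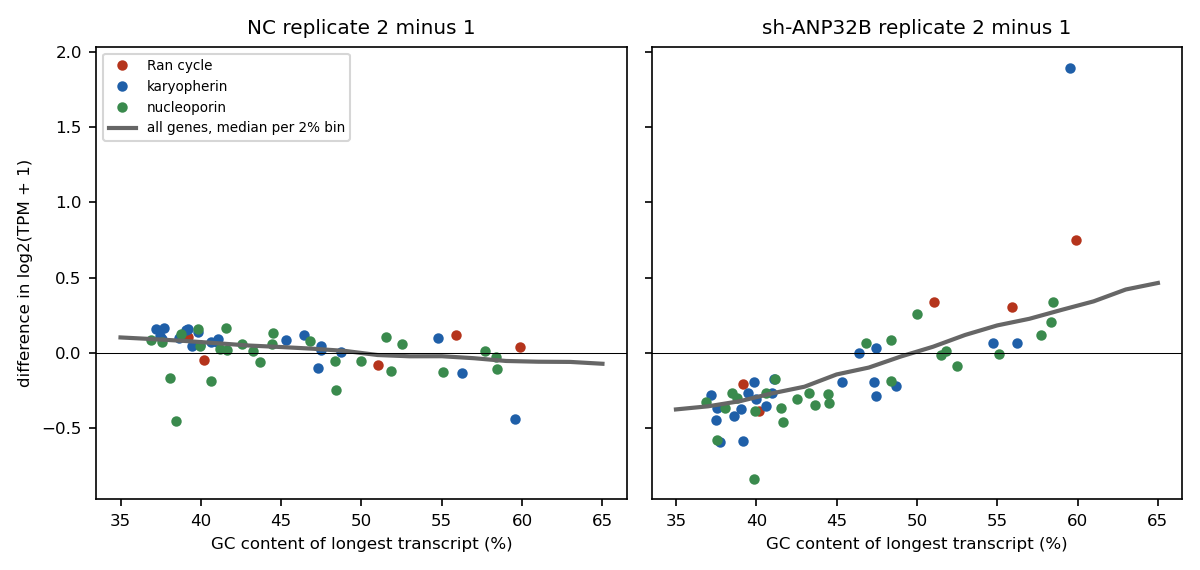
Points are the 54 genes, placed by the GC content of the longest transcript (%) and by the difference in log2(TPM + 1) between the 2 samples of a group, NC on the left and sh-ANP32B on the right, and the grey line is the median of all genes per bin. In sh-ANP32B the difference climbs with GC (Spearman 0.809 over the 54 genes), with all 31 genes under 45% below 0. The grey line climbs there as well, from -0.38 at 35% GC to 0.46 at 65%.

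Removing a smooth trend with GC from each sample kept the direction of all but NUP58 and RAE1, both near 0, and changed the number of calls. Under this correction 49 of the 54 genes were negative, beside 41.6% of all genes, with a median of -0.30. At a limma adjusted p under 0.05, 20 fell and none rose, beside 17.9% of all genes called in either direction and 6.55% lower. The 20 included RANBP1, RAN, CSE1L, KPNA2, KPNB1, TNPO1, NUP35, NDC1, NUP62 and NUP210, with all 5 inner ring genes. Corrected log2 fold changes were -1.08 for RANBP1 (limma adjusted p = 0.00616), -0.89 for CSE1L (0.0104) and -0.44 for RAN (0.0217). SEC13, AAAS and TNPO2 remained positive at 0.25, 0.20 and 0.03.

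**Figure D5:**
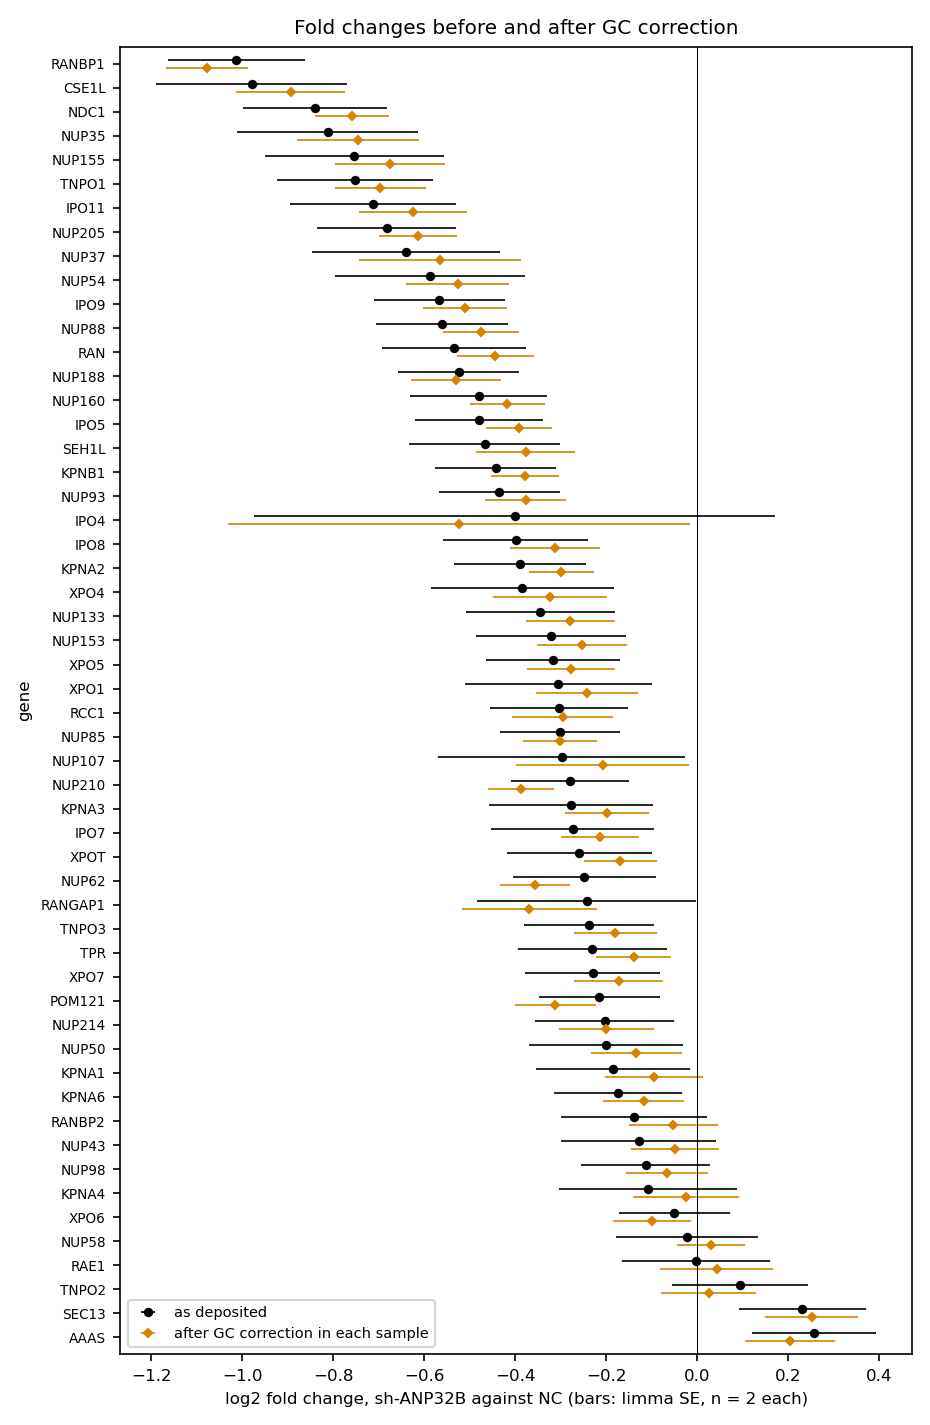
Each row is a gene with its log2 fold change of sh-ANP32B against NC and the limma SE (n = 2 each), as deposited (black) and after GC correction in each sample (orange). RANBP1 moves from -1.01 to -1.08 and CSE1L from -0.98 to -0.89, and the SE bars of all 54 genes are shorter after correction.

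The start regions of 49 of the 54 genes were found in the RefSeq promoter table (GRCh38.p14, 250 bases before to 50 after the start); KPNA4, KPNB1, NUP43, RANBP1 and XPO7 were absent from it. They were searched on both strands for 6 exact motifs that regulators of growth genes are known to use. The 6-base core TTTGAA of the cell cycle homology region (CHR) was in 22.4% of the 49 windows, 15.2% of all 35116 windows in the table and 9.74% of the windows of 9959 genes tested. The ETS motif CCGGAAGT was in 20.4%, 4.14% and 9.26%. The E-box CACGTG, which MYC and MAX bind among others, was in 14.3%, 7.26% and 10.7%, and CCAAT in 40.8%, 34.6% and 36.5%. The palindromic NRF1 motif was in 6.12%, 1.24% and 2.54%, and the E2F motif, TTTCCCGC or TTTGGCGC, in 2.04%, 2.27% and 3.796%. No test was made of these shares, and a match describes letters and shows no binding.

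Windows are given for 5 of the 11 genes with the CHR core, which were not chosen by a set rule. The core was also in IPO7, IPO11, NUP37, NUP98, NUP153 and NUP205, whose windows are not printed. Whether the core went with the size of a change was not tested. The windows run 5′ to 3′ on the strand of the gene, with every match to the 6 motifs in capitals. RAN (chr12:130871816-130872115, plus) also holds an E-box, CSE1L (chr20:49046062-49046361, plus) an inverted CCAAT, KPNA2 (chr17:68035485-68035784, plus) a pair of CCAAT boxes and a second CHR core, NDC1 (chr1:53838247-53838546, minus) no other motif, and NUP35 (chr2:183124193-183124492, plus) an ETS motif and an inverted CCAAT. No matches overlap in these 5 windows.
RAN: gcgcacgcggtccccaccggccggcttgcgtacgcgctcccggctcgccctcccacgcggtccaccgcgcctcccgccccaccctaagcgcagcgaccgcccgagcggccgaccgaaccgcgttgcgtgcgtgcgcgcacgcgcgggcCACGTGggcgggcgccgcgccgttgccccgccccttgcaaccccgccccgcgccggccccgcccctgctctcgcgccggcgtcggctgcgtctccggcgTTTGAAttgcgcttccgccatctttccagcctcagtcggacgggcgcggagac
CSE1L: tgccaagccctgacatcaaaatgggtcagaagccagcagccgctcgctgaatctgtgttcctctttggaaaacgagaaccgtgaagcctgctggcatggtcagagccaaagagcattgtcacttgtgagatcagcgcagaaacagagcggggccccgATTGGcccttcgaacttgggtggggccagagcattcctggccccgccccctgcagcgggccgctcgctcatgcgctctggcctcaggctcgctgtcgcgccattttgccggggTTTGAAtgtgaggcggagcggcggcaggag
KPNA2: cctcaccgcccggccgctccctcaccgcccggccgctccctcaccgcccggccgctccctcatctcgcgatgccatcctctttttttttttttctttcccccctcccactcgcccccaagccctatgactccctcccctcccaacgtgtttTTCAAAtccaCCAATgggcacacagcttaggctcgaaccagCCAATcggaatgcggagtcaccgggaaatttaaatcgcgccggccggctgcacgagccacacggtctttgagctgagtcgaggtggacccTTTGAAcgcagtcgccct
NDC1: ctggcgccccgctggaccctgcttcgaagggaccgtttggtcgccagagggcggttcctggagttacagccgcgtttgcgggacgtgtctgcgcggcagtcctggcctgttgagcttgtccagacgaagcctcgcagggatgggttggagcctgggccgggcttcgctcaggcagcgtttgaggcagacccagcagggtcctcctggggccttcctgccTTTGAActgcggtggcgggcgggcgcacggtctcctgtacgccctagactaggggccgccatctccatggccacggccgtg
NUP35: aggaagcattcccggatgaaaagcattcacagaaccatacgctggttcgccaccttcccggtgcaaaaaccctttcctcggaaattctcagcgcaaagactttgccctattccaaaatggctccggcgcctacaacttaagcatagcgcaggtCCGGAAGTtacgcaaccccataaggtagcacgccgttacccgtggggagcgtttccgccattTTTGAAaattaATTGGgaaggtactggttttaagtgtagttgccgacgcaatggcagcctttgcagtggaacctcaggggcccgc

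Other gene groups also differed between the samples. All 12 genes of a proliferation list were lower, with both knockdown samples below both controls in each, beside 21.4% of all genes tested. Their median log2 fold change was -0.69. At a limma adjusted p under 0.05, 5 of them fell (MKI67, PCNA, BUB1, TYMS and MCM2), beside 1.18% of all genes tested. Their summed level was 2669 and 2734 TPM in NC against 1702 and 1555 TPM in sh-ANP32B. Of 12 mature myeloid markers 9 were measured, all 9 with positive fold changes. LYZ and CSF3R rose at that threshold, beside 2.14% of all genes tested. The sum of the 9 was 976 and 1029 TPM in NC against 1820 and 1857 TPM in sh-ANP32B, most of it LYZ. Markers of other lineages were low, with PAX5 at 1.51 to 3.70 TPM and CD79A at 0 to 2.17 TPM, while the T cell marker CD2 rose from 1.65 and 1.57 TPM to 9.48 and 9.25 TPM. CD14, FCGR3A, CD163 and the erythroid and epithelial markers were not analysed here. The part of any of these in the transport genes was not tested.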

How the data were processed

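RNA-seq of Kasumi-1 cells was analysed in 2 NC and 2 sh-ANP32B samples, grouped by their labels. Reads were aligned to hg38 with HISAT2 2.0.5 per the submitters' processing notes, and the authors deposited TPM values, identified from columns of decimals that sum to 997812 to 998314. The program that made the TPM, its annotation and its use of strand were not given in the sources used here. TPM keeps no sequencing depth, so depth was unknown and no counting interval was computed. Mitochondrial genes took 12.9% and 13.1% of TPM in NC and 11.4% and 8.43% in sh-ANP32B.

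Symbols, positions and GC content came from GENCODE v44 (hg38), which held 16986 of the 18567 gene IDs. Values were taken as log2(TPM + 1) with a filter of 1 TPM in at least 2 samples, and sh-ANP32B was compared with NC by limma 3.58.1 with an abundance trend in R 4.3.3. Two-sided p-values were adjusted over 16817 genes with the Benjamini-Hochberg procedure. The design allowed for counts, and as the values were TPM the test for TPM was used. An exact permutation test of 2 against 2 samples has 0.333 as its smallest two-sided p and was not run. GC correction subtracted a loess curve (span 0.3) of log2(TPM + 1) on GC in each sample. Data were simulated for 16817 genes with the mean level of each gene and the fitted spread, equal in both groups and independent between genes. The 200 changed genes were all above a set minimum level. The fit recovered 33.8% of genes changed by 1 on the log2 scale and 92.7% of those changed by 2. The samples themselves had pooled SDs of 0.273 in NC and 0.356 in sh-ANP32B and a trend with GC. These rates may therefore not hold for them. The members, lists and motifs were chosen with earlier results of these data known. Genes were described if they passed the adjusted threshold, had one of the 2 most negative or 2 most positive fold changes of their class, or were on a list of 19 central members; others are named as chosen after their values were seen. Alternatives were another pseudocount, other filters and scalings, mitochondrial genes left out, GC correction, a replicate block, no abundance trend and leaving out each sample.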

Additional observations from a re-analysis of the deposited data

How the results depend on the processing

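The number of the 54 genes at a limma adjusted p under 0.05, 2 as reported, was 1 with a pseudocount of 0.1, 4 with at least 1 TPM required in every sample, 4 with median-of-ratios scaling, 20 with GC correction and 0 without the abundance trend, where 17 had an unadjusted p under 0.05. It ran from 0 to 33 when 1 sample was left out, where the lone sample of a group is assumed to vary like the others; the 0 was without NC replicate 2, with 7 at an unadjusted p under 0.05, and the 33 without sh-ANP32B replicate 1, where 32 were lower. Over all genes the count, 559 as reported, was 2759 with GC correction and 0 without the abundance trend, where 3701 had an unadjusted p under 0.05, and 273 to 4079 with 1 sample left out. Lower calls were 199 of the 559 and 284 of 520 under median-of-ratios scaling. With 1 sample left out, 7 to 23 of the 54 genes met the criterion of the study, 14 as reported. The share of all genes tested that met this criterion with 1 sample left out was not worked out. That range therefore cannot be set beside a background, and nothing particular to the 54 genes is drawn from it. The median log2 fold change was -0.49 for karyopherins and -0.42 for nucleoporins without sh-ANP32B replicate 1. With each of the 4 samples left out in turn, these medians ranged from -0.49 to -0.19 and from -0.42 to -0.30. ANP32B had an adjusted p of 0.0929 at a log2 fold change of -3.04 without the abundance trend. Between 47 and 51 of the 54 genes were negative under every alternative run.

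The replicate numbers are not stated to mark a shared culture or day, and the deviations of same-numbered samples were not positively correlated (Pearson -0.0925, Spearman -0.168 across 16817 genes). With a replicate block 7 of the 54 genes and 1473 of all genes passed, and with the block and GC correction 17 and 2544. Crossed pairing, added after seeing the data, gave 14 and 1995. Of 364 values for 26 named genes under 14 alternatives, 314 kept direction and side of the threshold, 40 passed it newly, 6 no longer passed and 4 reversed: XPO6 at 0.0014 without NC replicate 2, RANGAP1 at 0.13 without sh-ANP32B replicate 1, and KPNA4 at 0.079 and NUP107 at 0.12 without sh-ANP32B replicate 2. With 1 sample left out these ran from -0.10 to 0.0014, -0.62 to 0.13, -0.29 to 0.079 and -0.72 to 0.12. The cause of these differences was not tested. Among 37 other transport genes, 0 as reported, 6 passed with GC correction (4 lower and 2 higher, 16.2% beside 17.9% of all genes), 4 with the block and GC correction and 0 to 7 with 1 sample left out. With 2 samples a group and depth unknown, small differences between single genes could not be resolved.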

Other observations

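Beyond the 54 genes, 41 further genes of nuclear transport were listed and 37 were tested. None passed a limma adjusted p under 0.05. At an unadjusted p under 0.05, 4 (10.8%) were lower and none was higher, near the 8.72% of all genes tested that were lower. Negative fold changes were seen in 25 of the 37, beside 42.1% of all genes tested, or in 31 under median-of-ratios scaling, beside 49.6%, with a median of -0.11. The 4 all belong to mRNA export, and their adjusted p ran from 0.1003 to 0.188. NXT1, the partner of the export receptor NXF1, stood at 66.7 and 62.3 TPM in NC and at 44.7 and 46.7 TPM in sh-ANP32B (log2 fold change -0.49). ALYREF, an adaptor that brings mRNA to that receptor, stood at 138.5 and 134.2 TPM in NC and at 90.1 and 112.4 TPM in sh-ANP32B (-0.43). The helicase DDX39A and SARNP had values of -0.33 and -0.45, and all 4 had groups that did not overlap. NXF1 itself stood at 46.9 and 55.6 TPM in NC and at 67.3 and 58.2 TPM in sh-ANP32B. Of the 3 further karyopherins tested, KPNA5 and IPO13 had positive log2 fold changes, 0.39 and 0.02, and RANBP6 had -0.0085. KPNA5, another importin alpha, stood at 10.6 and 11.9 TPM in NC and at 16.9 and 13.4 TPM in sh-ANP32B. Both of its knockdown samples were above both controls (limma adjusted p = 0.293). These genes were named after their values were seen.

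POM121C, a near copy of the membrane nucleoporin POM121, was listed at 62.9 and 64.6 TPM in NC and at 56.0 and 61.9 TPM in sh-ANP32B. How reads were divided between the copies was not given in the sources used here, so the level of each is uncertain.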
